A study of Sus scrofa with 12 samples.

Results

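The genes described are TNC and TNXB (tenascins), THBS1 and THBS2 (thrombospondins), SPP1 (osteopontin), CYR61 (a CCN family protein, also called CCN1) and FN1 (fibronectin). They were found as every probe set whose single gene symbol in the platform annotation was one of these names. That gave 14 probe sets for 7 genes, of 23999 probe sets and 6765 symbols on the array. THBS1 had 5 probe sets, FN1 had 4, and the other 5 genes had 1 each (Ssc.16209.1.S1_at for TNC, Ssc.19638.1.S1_at for TNXB, Ssc.992.1.S1_at for THBS2, Ssc.101.1.S1_at for SPP1 and Ssc.9720.1.A1_at for CYR61). Of the 14, 13 entered the tests, and the last, an FN1 probe set, stayed under log2 4 on all 12 arrays.

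The cells were valvular interstitial cells, the fibroblast-like cells inside the heart valve leaflet, freed by collagenase II from the aortic valves of adult pigs. For cells passaged 2 times (P2) the growth medium held 15% serum. These cells were grown on tissue culture plastic, kept in medium with 1% serum, and collected after 3 days of culture. They received either nothing or 5 ng/ml of porcine TGF-β1, over 8 h in 1 group and 24 h in another. Cells at passage 0 (P0) were freshly isolated, never cultured and untreated. Each of the 4 groups held 3 biological replicates, 12 arrays in all. The labels do not give the animals behind them, so p-values measure the spread between these samples. Passaging, plastic, growth serum, low serum and the time after isolation cannot be told apart in the comparison of P2 with P0.

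Matricellular proteins are secreted into the matrix but, unlike collagens, mainly act on how cells attach, migrate and respond to growth factors. Tenascin-C is made where tissue is remodelled, whereas tenascin-X belongs to quiet connective tissue and organises collagen fibrils. Thrombospondin-1 can release TGF-β from its latent complex and inhibits blood vessel growth, and thrombospondin-2 shares the vessel effect but not the motif used for that release. Osteopontin binds integrins and is found in mineralising valves, CYR61 is an integrin ligand switched on by serum and by mechanical load, and fibronectin is the fibrillar scaffold on which several of these proteins are laid down.

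Values are log2 expression (GCRMA) per probe set, and levels of different probe sets are not set against each other. Array medians ran from 5.87 to 5.94, and arrays of 1 group correlated at 0.982 to 0.994 over the 17638 probe sets tested. Of 9 listed markers of valvular interstitial cells 7 had a probe set with 1 symbol, and all 7 lay above the 95th percentile of the reporter controls (log2 4.58) in every group, among them VIM, DCN and LUM. COL1A1 and PDGFRA had no such probe set. In untreated P2 against P0 cells 5 of the 7 fell and none rose, where 25.8% of all probe sets fell and 33.6% rose. Their summed level was log2 16.15 to 16.36 in untreated P2 cells and 16.91 to 16.97 in P0 cells. At 24 h of TGF-β1 2 of the 7 fell and none rose, and with replicate number as a block 4 fell and 1 rose. The P2 arrays numbered 3 stood apart in endothelial markers. Over the 11 markers the mean log2 value was 5.75, 5.86 and 5.65 on the number 3 arrays of untreated, 8 h and 24 h cells, and 7.03 to 7.79 on the other P2 arrays. KDR and VWF lay under the control level in all groups. P2 arrays with the same number also resembled each other, so fits with replicate number as a block are also given. They are given at least where they change a call of the 7 genes or a partner list count at 8 h or 24 h. Of all 17638 probe sets, 1006 rose and 1194 fell at 8 h with the block. At 24 h 1723 rose and 1796 fell with it, and 754 and 744 without it. Over the 11 endothelial markers the mean was 6.90 to 7.18 on the P0 arrays. In culture none of 10 tested endothelial markers rose and 1 fell. Without the number 3 arrays 6 rose and 1 fell, where 5814 of 17638 probe sets rose and 4431 fell. At 24 h of TGF-β1 1 rose and none fell, and with the block 1 rose and 4 fell.

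**Figure D1:**
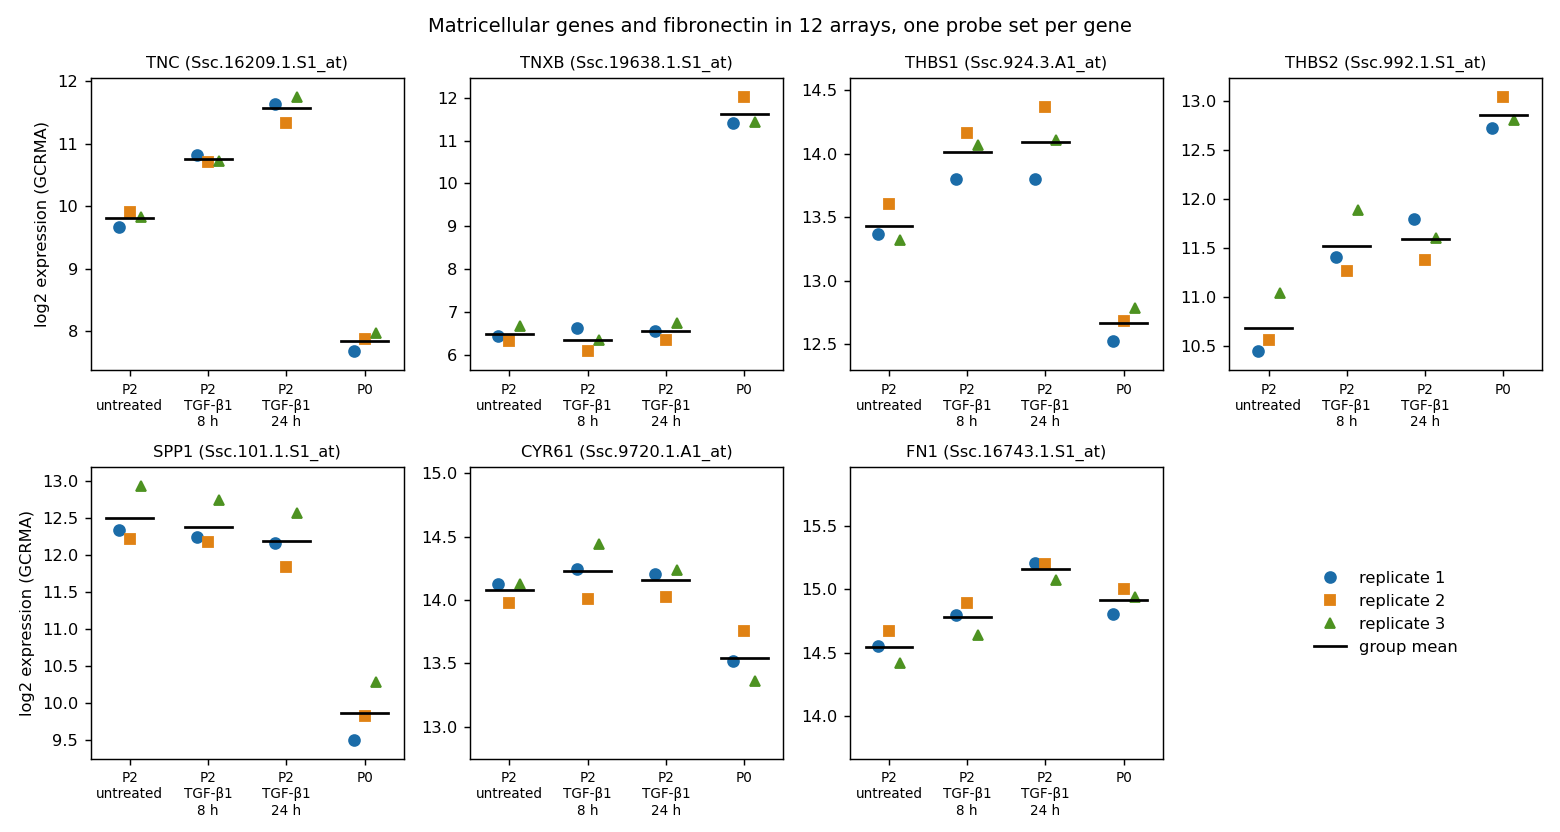
Log2 expression (vertical axis, a separate scale in each panel) of the leading probe set of each gene on the 12 arrays. Points are arrays, with shape and colour by replicate number, and bars are group means of 3. TNC has means of 9.80, 10.75 and 11.57 over the P2 groups in time order and 7.84 in P0 cells, and TNXB has means of 6.35 to 6.55 in P2 cells and 11.61 in P0 cells.

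Untreated P2 cells were set against P0 cells to see what passage and culture changed. Tenascin-C, osteopontin, thrombospondin-1 and CYR61 were higher in the cultured cells, while tenascin-X and thrombospondin-2 were lower. Fibronectin gave opposite calls on separate probe sets. By limma with Benjamini-Hochberg adjustment over all probe sets tested, 7 of 13 probe sets rose and 3 fell, where 33.6% of all probe sets rose, 25.8% fell and 59.4% were called either way. The groups did not overlap for 10 of the 13, against 65.1% of all probe sets. A call in this comparison is therefore common on the whole array. The median log2 fold change was 0.53 over the 13 probe sets and 0.07 over all.

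The tenascins moved in opposite directions. TNC read 9.67, 9.91 and 9.82 in untreated P2 cells, against 7.68, 7.88 and 7.97 in P0 cells. Every P2 array lay above every P0 array, and the gene rose 3.89-fold (log2 fold change 1.96 ± 0.13 SE, n = 3 each, limma adjusted p = 1.18e-07). TNXB read 6.45, 6.32 and 6.67 in untreated P2 cells, against 11.41, 12.01 and 11.43 in P0 cells. Every P2 array lay far below every P0 array, the largest change among the 7 genes in this comparison, a 35.1-fold fall (-5.13 ± 0.19 SE, n = 3 each, limma adjusted p = 1.43e-09). The change was larger in size than that of 99.6% of the probe sets tested.

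The thrombospondins also parted. THBS2 read 10.45, 10.56 and 11.05 in untreated P2 cells, against 12.72, 13.03 and 12.81 in P0 cells. The groups were well apart, and THBS2 fell 4.49-fold (-2.17 ± 0.20 SE, limma adjusted p = 1.59e-06). THBS1, on the probe set with the highest mean (Ssc.924.3.A1_at), read 13.37, 13.61 and 13.32 in untreated P2 cells, against 12.52, 12.68 and 12.79 in P0 cells. All P2 arrays were higher, a 1.70-fold rise (0.77 ± 0.16 SE, limma adjusted p = 0.00119).

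SPP1 read 12.35, 12.23 and 12.94 in untreated P2 cells, against 9.51, 9.83 and 10.28 in P0 cells. Osteopontin transcript thus rose 6.20-fold (2.63 ± 0.26 SE, limma adjusted p = 3.21e-06). Macrophages are a known source of osteopontin, and their markers went the other way. Of 14 listed macrophage markers 9 were tested, and all 9 fell, where 25.8% of all probe sets fell. Among them CD163 averaged 5.41 in untreated P2 cells and 10.95 in P0 cells. The summed level of the macrophage markers on the array was log2 9.89 to 10.44 in untreated P2 cells and 13.48 to 14.03 in P0 cells, with ITGAM under the control level in all groups. The part of these cells in the SPP1 levels was not tested. Platelets carry thrombospondin-1, and their 3 markers on the array summed to log2 7.51 to 7.97 in untreated P2 cells and 6.86 to 7.11 in P0 cells. The 4 smooth muscle markers summed to 12.65 to 12.78 in untreated P2 cells and 12.59 to 12.80 in P0 cells. That sum joins opposite changes, as 2 of the 4 rose and 1 fell. ACTG2 read 9.94, 9.92 and 10.62 in untreated P2 cells, against 11.91, 12.31 and 11.94 in P0 cells. CNN1 read 11.56, 11.73 and 11.61, against 10.46, 10.04 and 10.14, and SMTN was also higher in P2 cells. DES lay under the control level in P2 cells and PPBP of the platelet list in P0 cells. In these bulk samples, fewer cells of a type and less RNA per cell cannot be told apart.

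CYR61 read 14.13, 13.98 and 14.13 in untreated P2 cells, against 13.52, 13.76 and 13.36 in P0 cells. The rise was small but without overlap (1.44-fold, 0.53 ± 0.14 SE, limma adjusted p = 0.00582), and 49.3% of the probe sets tested changed by less. CYR61 is itself an immediate-early gene, and most other tested genes of that class fell. Of 15 tested immediate-early genes 14 fell and none rose (0 at an unadjusted p under 0.05), where 25.8% of all probe sets fell and 33.6% rose. The list had a median log2 fold change of -3.53. FOS (-7.00 ± 0.27), ATF3 (-6.08 ± 0.41), ZFP36 (-5.99 ± 0.13) and NR4A3 (-5.86 ± 0.14) changed most. Among targets and partners of YAP and TEAD, the load-sensitive factors that are known to act on CYR61, 7 of 11 rose and 1 fell, with a median of 1.00. VGLL3 rose by 5.45 ± 0.28, CRIM1 by 2.70 ± 0.18 and ANKRD1 at least 19.7-fold, and AMOTL1 fell (-1.59 ± 0.13). What lay behind the CYR61 change was not tested. With TGF-β1 at 24 h, 1 immediate-early gene rose (BTG2, 0.66) and 1 fell (JUN, -0.54), and 2 of the YAP and TEAD genes rose, F3 by 3.03 ± 0.42 and TGFB2 by 0.44 ± 0.12. At 8 h no immediate-early gene rose and 1 fell, and 1 YAP and TEAD gene rose and 1 fell. With the block the YAP and TEAD genes had 1 rise and 3 falls at 8 h and 2 rises and 4 falls at 24 h. The immediate-early genes then had 0 rises and 4 falls at 8 h and 2 rises and 1 fall at 24 h. Of all 17638 probe sets the block gave 1006 rises and 1194 falls at 8 h, and 1723 and 1796 at 24 h. Without the P2 arrays numbered 3, 1 YAP and TEAD gene rose and 1 fell at 24 h, where 314 of 17638 probe sets rose and 448 fell.

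FN1 was read by 4 probe sets that did not behave alike. The highest (Ssc.16743.1.S1_at) read 14.55, 14.68 and 14.42 in untreated P2 cells, against 14.81, 15.00 and 14.94 in P0 cells, and fell 1.29-fold (-0.37 ± 0.11 SE, limma adjusted p = 0.0138). Its values lie close to the top of the scale, as the highest value of any probe set was 15.81 to 15.95 per array. Leaving out untreated replicate 3 raised the adjusted p to 0.0578. Ssc.5580.1.S1_at read 8.23, 8.53 and 7.82 in untreated P2 cells, against 7.51, 7.14 and 7.43 in P0 cells. It rose 1.79-fold (0.84 ± 0.18 SE, limma adjusted p = 0.00182), so the direction of fibronectin transcript in culture depends on the probe set.

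The other FN1 probe sets carried little signal. Ssc.16743.1.A1_at had group means of 3.91 in untreated P2 cells and 4.24 in P0 cells, both under the control level. It passed the filter through few arrays, and its highest value was 4.51. Ssc.22199.1.A1_at ran from 2.46 to 3.43 over the 12 arrays and was not tested. The plot of all THBS1 and FN1 probe sets shows these values beside the control level.

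**Figure D2:**
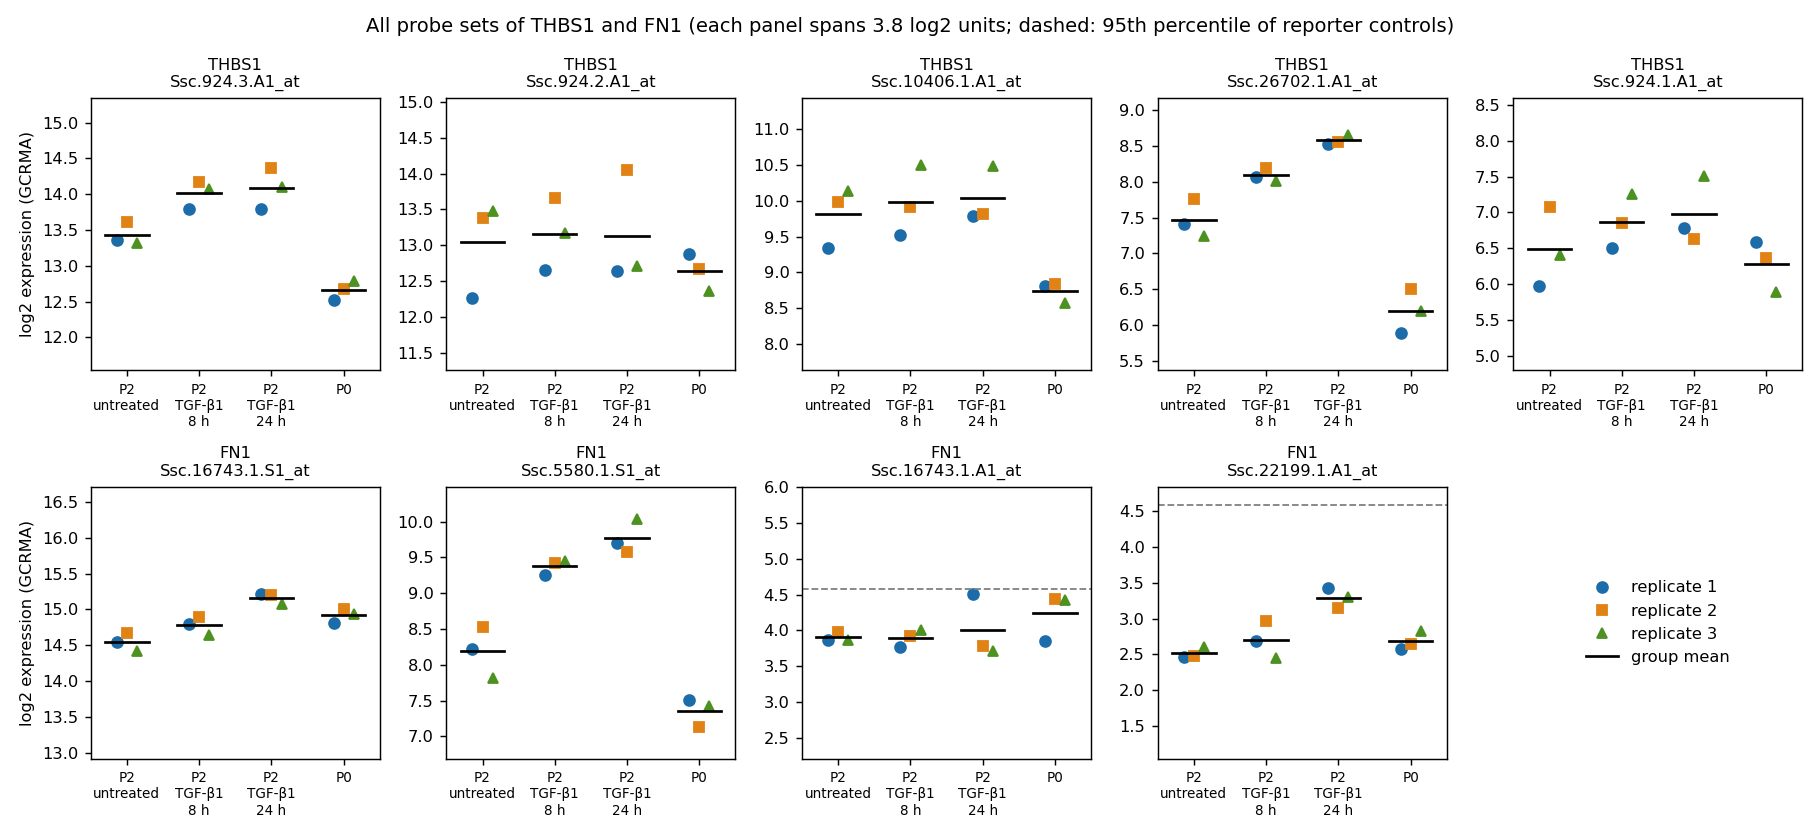
Log2 expression (vertical axis, 3.8 log2 units in every panel) of the 5 THBS1 probe sets (top) and the 4 FN1 probe sets (bottom) on the 12 arrays. Points are arrays by replicate number, bars are means of 3, and the dashed line is the 95th percentile of the reporter controls. Ssc.924.3.A1_at and Ssc.26702.1.A1_at of THBS1 and Ssc.5580.1.S1_at of FN1 have their highest means at 24 h, while Ssc.924.2.A1_at scatters widely among replicates.

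The 5 THBS1 probe sets had the same sign in culture, but their replicates scattered unequally. Ssc.26702.1.A1_at read 7.41, 7.76 and 7.24 in untreated P2 cells, against 5.89, 6.51 and 6.19 in P0 cells (1.28 ± 0.17 SE, limma adjusted p = 3.23e-05). Ssc.10406.1.A1_at read 9.34, 9.99 and 10.14 in untreated P2 cells, against 8.81, 8.84 and 8.57 in P0 cells (1.08 ± 0.28 SE, limma adjusted p = 0.00480). Both rose without overlap. The remaining pair did not pass. Ssc.924.2.A1_at changed by 0.41 ± 0.41 SE (adjusted p = 0.416) and Ssc.924.1.A1_at by 0.20 ± 0.31 SE (adjusted p = 0.602), and their replicate SDs in untreated P2 cells were 0.67 and 0.55.

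TGF-β1 for 8 h was compared with no treatment for the early response, and tenascin-C and thrombospondin-2 rose. Fibronectin was called higher only on a probe set other than its leading one, the one with the highest mean, which was not called. In this comparison 3 of 13 probe sets rose and none fell (5 rising and 0 falling at an unadjusted p under 0.05), where 2.53% of all probe sets rose and 5.07% were called either way. Groups did not overlap for 5 of the 13, against 25.5% of all. The median log2 fold change was 0.23 over the 13 and -0.01 over all. After 24 h, 6 of 13 had risen and none had fallen (6 and 0 at an unadjusted p under 0.05), where 4.27% of all probe sets rose, 4.22% fell and 8.49% were called either way. Groups did not overlap for 6 of the 13, against 25.3% of all, and the medians were 0.49 and 0.01. Probe sets of 1 gene are not independent, and both comparisons share the untreated arrays with each other and with the comparison of P2 with P0. Taken by gene on the leading probe set, 2 of 7 rose at 8 h and 4 of 7 at 24 h.

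**Figure D3:**
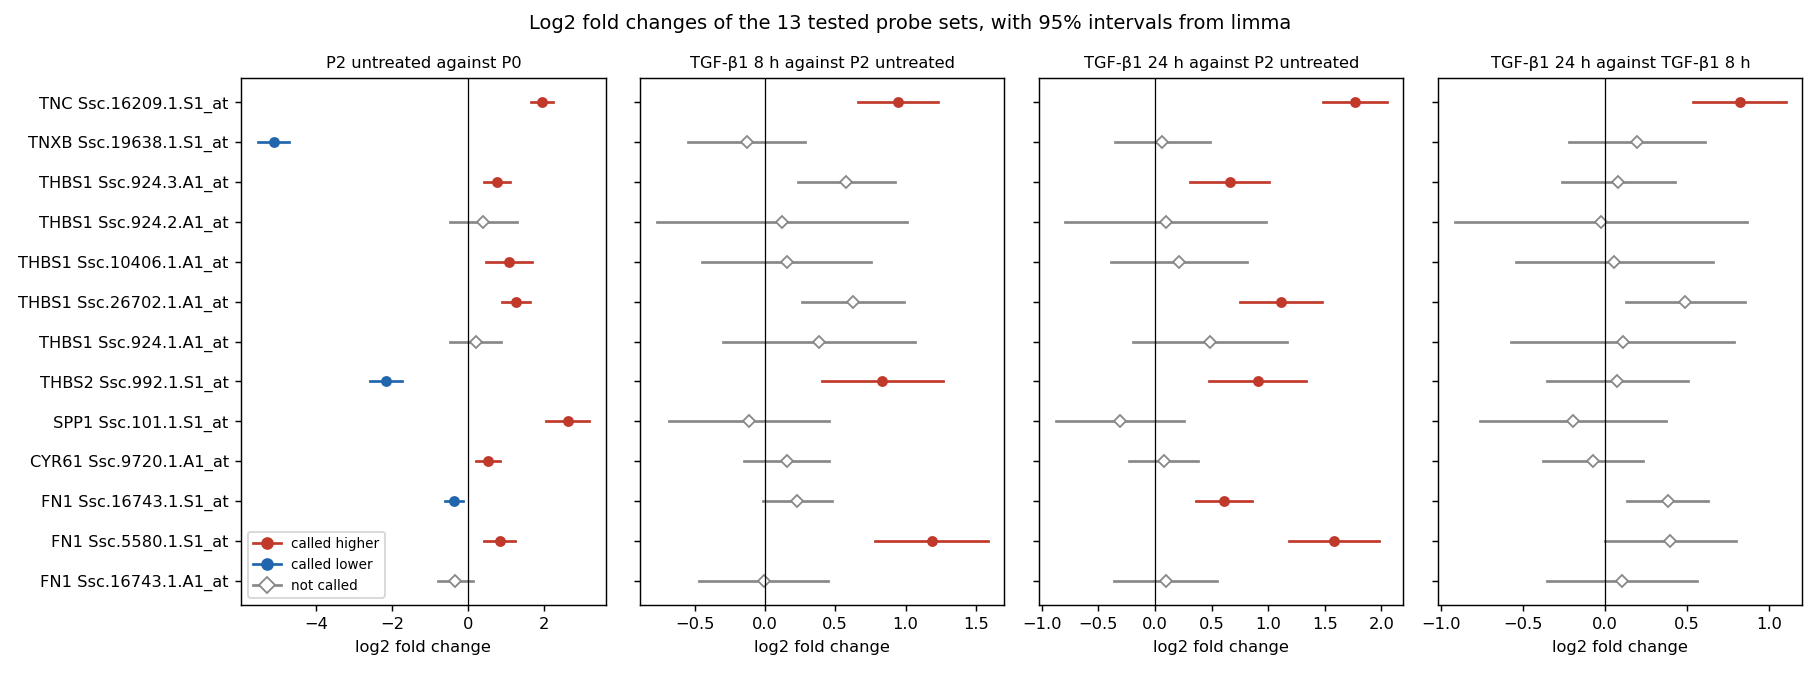
Log2 fold changes (horizontal axis, scaled separately in each panel) of the 13 tested probe sets in 4 comparisons, with 95% intervals from limma as lines. Filled circles passed an adjusted p of 0.05 and open diamonds did not. In culture 7 probe sets rose and 3 fell, 3 rose at 8 h, 6 at 24 h, and TNC alone passed between 24 h and 8 h.

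TNC had the clearest time course. It read 9.67, 9.91 and 9.82 in untreated cells, 10.82, 10.71 and 10.73 at 8 h, and 11.64, 11.33 and 11.74 at 24 h. No group overlapped another. The rise was 1.93-fold at 8 h (0.95 ± 0.13 SE, limma adjusted p = 0.00271) and 3.40-fold at 24 h (1.77 ± 0.13 SE, limma adjusted p = 3.91e-05), and the 24 h change was larger in size than that of 99.4% of the probe sets tested. Within replicate numbers the 24 h arrays were higher by 1.96, 1.42 and 1.92.

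Between 24 h and 8 h TNC was the 1 probe set of 13 that was called, rising 1.76-fold (0.82 ± 0.13 SE, limma adjusted p = 0.0316), where 0.142% of all probe sets rose, 0.0907% fell and 0.232% were called either way. Without any of the 3 arrays at 8 h, or without 24 h replicate 1 or 3, it no longer passed (adjusted p = 0.0829 to 0.137), while with replicate number as a block it did (adjusted p = 0.0229). The groups at 24 h and 8 h did not overlap for 4 of the 13 probe sets, against 13.7% of all. Besides TNC these were Ssc.26702.1.A1_at of THBS1 (0.49 ± 0.17 SE, adjusted p = 0.365) and the FN1 probe sets Ssc.16743.1.S1_at (0.38 ± 0.11 SE, adjusted p = 0.276) and Ssc.5580.1.S1_at (0.40 ± 0.18 SE, adjusted p = 0.544). From high to low the TNC levels ran 24 h, 8 h, untreated P2 and P0, with each neighbour in that order apart. At 24 h TNC was 13.2-fold above P0 (3.73 ± 0.13 SE, limma adjusted p = 9.27e-10).

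TNXB showed no call with TGF-β1. It read 6.45, 6.32 and 6.67 in untreated cells, 6.62, 6.09 and 6.34 at 8 h, and 6.55, 6.35 and 6.74 at 24 h. These ranges overlapped throughout. The 24 h change was 0.07 with a 95% interval of -0.35 to 0.48 (limma adjusted p = 0.891), against -5.13 in culture. At 24 h TNXB was still 33.5-fold below P0 (-5.07 ± 0.19 SE, limma adjusted p = 1.53e-09), so P0 stood highest and the 3 P2 groups had no order beyond their spread.

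THBS2 rose with TGF-β1 but stayed under its P0 level. It read 10.45, 10.56 and 11.05 in untreated cells, 11.41, 11.26 and 11.89 at 8 h, and 11.80, 11.38 and 11.61 at 24 h. Both treated groups lay above the untreated one and overlapped each other. The rise was 1.78-fold at 8 h (0.84 ± 0.20 SE, limma adjusted p = 0.0310) and 1.88-fold at 24 h (0.91 ± 0.20 SE, limma adjusted p = 0.0148). At 24 h the gene was still 2.39-fold below P0 (-1.26 ± 0.20 SE, limma adjusted p = 0.000127). With only the compared groups fitted, neither call passed (adjusted p = 0.0990 at 8 h and 0.0527 at 24 h). With replicate number as a block both did (limma adjusted p = 0.0134 at 8 h and 0.00620 at 24 h). The 8 h call was lost without untreated replicate 1 or 2 or without 8 h replicate 1 or 3 (adjusted p = 0.0770 to 0.115), and the 24 h call without untreated replicate 1 (0.0626) or 24 h replicate 1 (0.0611). In order, P0 stood highest, then 24 h and 8 h, which did not differ beyond their spread (0.07 ± 0.20 SE), then untreated P2.

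THBS1 was called higher at 24 h on Ssc.924.3.A1_at and Ssc.26702.1.A1_at and not on its other probe sets. Ssc.924.3.A1_at read 13.37, 13.61 and 13.32 in untreated cells, 13.80, 14.17 and 14.07 at 8 h, and 13.80, 14.37 and 14.11 at 24 h. Treated arrays lay above untreated ones at both times. It rose 1.58-fold at 24 h (0.66 ± 0.16 SE, limma adjusted p = 0.0243). That call was lost without untreated replicate 1 or 3 or 24 h replicate 2 or 3 (adjusted p = 0.0566 to 0.0960). It was also lost with only the compared groups fitted (0.0921), and it held with replicate number as a block (limma adjusted p = 0.00427). Ssc.26702.1.A1_at rose 2.16-fold at 24 h (1.11 ± 0.17 SE, limma adjusted p = 0.00207). It read 7.41, 7.76 and 7.24 in untreated cells, 8.07, 8.20 and 8.02 at 8 h, and 8.52, 8.56 and 8.66 at 24 h, with no overlap between any of these groups.

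At 8 h these 2 THBS1 probe sets just missed the threshold, at 0.58 ± 0.16 SE (adjusted p = 0.0605) for Ssc.924.3.A1_at and 0.62 ± 0.17 SE (adjusted p = 0.0525) for Ssc.26702.1.A1_at. With replicate number as a block both passed (adjusted p = 0.0113 and 0.0159), which brought the 8 h count to 5 of 13. The block also took the 8 h calls over all 17638 probe sets from 894 to 2200. The same THBS1 probe sets also passed with a stricter filter, quantile normalisation or an intensity trend (adjusted p = 0.0306 to 0.0480). The other 3 THBS1 probe sets did not pass at either time, and at 24 h they changed by 0.09 ± 0.41 SE, 0.21 ± 0.28 SE and 0.49 ± 0.31 SE. Part of their scatter went with the replicate number. Ssc.924.2.A1_at averaged 0.59 below its group mean on P2 arrays numbered 1 and 0.58 above it on those numbered 2, and Ssc.10406.1.A1_at was highest on number 3 in all 3 P2 groups. With the block these 3 still did not pass at 24 h. Ssc.924.2.A1_at changed by 0.09 ± 0.24 SE (limma adjusted p = 0.823), Ssc.10406.1.A1_at by 0.21 ± 0.13 SE (0.300) and Ssc.924.1.A1_at by 0.49 ± 0.26 SE (0.235). From high to low the Ssc.924.3.A1_at levels ran 24 h, 8 h, untreated P2 and P0, and the first 2 did not differ beyond their spread (0.08 ± 0.16 SE).

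FN1 rose at 24 h on both probe sets with clear signal. Ssc.5580.1.S1_at read 8.23, 8.53 and 7.82 in untreated cells, 9.26, 9.42 and 9.45 at 8 h, and 9.71, 9.58 and 10.04 at 24 h. It had risen 2.27-fold at 8 h (1.19 ± 0.18 SE, limma adjusted p = 0.00522) and 2.99-fold at 24 h (1.58 ± 0.18 SE, limma adjusted p = 0.000472). Ssc.16743.1.S1_at read 14.55, 14.68 and 14.42 in untreated cells, 14.80, 14.90 and 14.64 at 8 h, and 15.21, 15.20 and 15.07 at 24 h. It was higher at 8 h in all 3 numbered pairs without passing the test (0.23 ± 0.11 SE, adjusted p = 0.324), and rose 1.53-fold at 24 h (0.61 ± 0.11 SE, limma adjusted p = 0.00654).

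The order of FN1 levels depended on the probe set. On Ssc.5580.1.S1_at it was 24 h, 8 h, untreated P2 and P0, with 24 h at 5.35-fold above P0 (2.42 ± 0.18 SE, limma adjusted p = 3.28e-07). On Ssc.16743.1.S1_at the P0 mean of 14.92 lay between 24 h (15.16) and 8 h (14.78). There 24 h and P0 differed by 0.24 ± 0.11 SE (adjusted p = 0.0770), and the ranges of 8 h and P0 overlapped. Against P0 in all, 7 of 13 probe sets were higher at 24 h and 2 lower, where 35.6% of all probe sets were higher, 26.9% lower and 62.5% called either way. Groups did not overlap for 11 of the 13, against 65.6% of all.

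SPP1 passed with TGF-β1 only in the blocked fit, at 24 h. It read 12.35, 12.23 and 12.94 in untreated cells, 12.24, 12.17 and 12.75 at 8 h, and 12.17, 11.84 and 12.57 at 24 h. Replicate 3 was highest in every P2 group, and the ranges overlapped, but each numbered pair was lower at 24 h, by -0.18, -0.39 and -0.37. The change at 24 h was -0.31 ± 0.26 SE (limma adjusted p = 0.543, 95% interval -0.88 to 0.26), and with replicate number as a block it passed (-0.31 ± 0.09 SE, adjusted p = 0.0432). At 24 h SPP1 was 5.00-fold above P0 (2.32 ± 0.26 SE, limma adjusted p = 8.02e-06).

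CYR61 gave no call with TGF-β1. It read 14.13, 13.98 and 14.13 in untreated cells, 14.25, 14.01 and 14.44 at 8 h, and 14.21, 14.02 and 14.24 at 24 h. The ranges overlapped. The change was 0.15 at 8 h (95% interval -0.15 to 0.46, limma adjusted p = 0.666) and 0.08 at 24 h (95% interval -0.23 to 0.38, limma adjusted p = 0.812). At 24 h CYR61 was 1.52-fold above P0 (0.61 ± 0.14 SE, limma adjusted p = 0.00225), and the 3 P2 groups had no order beyond their spread.

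**Figure D4:**
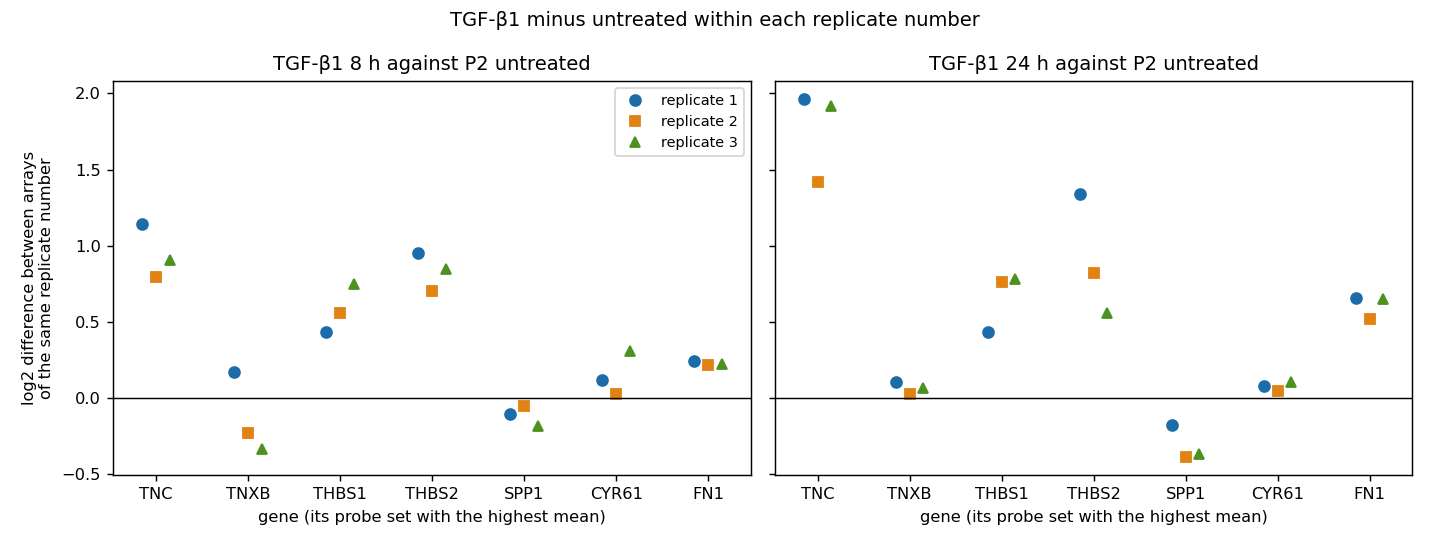
Log2 difference (vertical axis) between the TGF-β1 array and the untreated array of the same replicate number, for the leading probe set of each gene, at 8 h (left) and 24 h (right). At both times TNC, THBS1, THBS2, CYR61 and FN1 lie above 0 and SPP1 below 0 in all 3 numbers.

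Without the 3 P2 arrays numbered 3, which read low for endothelial markers, 9 of 13 probe sets were called in culture, 2 at 8 h, 5 at 24 h and 9 at 24 h against P0. Of all 17638 probe sets, the same fit called 10245 in culture, 265 at 8 h, 762 at 24 h and 10639 at 24 h against P0. Ssc.16743.1.S1_at of FN1 no longer passed in culture (-0.30, adjusted p = 0.0507), nor did THBS2 at 8 h (0.83, adjusted p = 0.0564), Ssc.924.3.A1_at of THBS1 at 24 h (0.60, adjusted p = 0.173) or TNC at 24 h against 8 h (0.72, adjusted p = 0.208). With all arrays these log2 fold changes were -0.37, 0.84, 0.66 and 0.82. The fit without number 3 also had 3 fewer arrays, and the reason for the lost calls was not tested. TNC at 24 h against untreated cells was 1.69 without the number 3 arrays (adjusted p = 0.00136), THBS2 1.08 (0.00925) and Ssc.5580.1.S1_at of FN1 1.26 (0.00438). With all arrays these 24 h changes were 1.77, 0.91 and 1.58. SPP1 was highest on number 3 in all P2 groups. The part of the endothelial difference in these values was not tested.

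The receptors of these proteins were followed as a list. In culture 6 of 15 tested receptor genes rose and 3 fell, with a median of 0.33, where 33.6% of all probe sets rose and 25.8% fell, so the list's share of calls was near that of the whole array. ITGA8, an integrin chain that binds tenascin-C, fibronectin and osteopontin, rose at least 40.1-fold, to a mean of 9.91 in untreated P2 cells against 4.55 in P0 cells. The syndecan SDC2 rose by 1.98 ± 0.14, while ITGA2, a collagen receptor chain, fell at least 2.42-fold and ITGB5 fell (-1.15 ± 0.22). At 24 h of TGF-β1 2 of 15 rose and none fell (4 and 1 at an unadjusted p under 0.05), with a median of 0.03. ITGA5, the chain that makes the main fibronectin receptor, read 9.05, 9.39 and 7.89 in untreated cells, 10.22, 10.22 and 9.58 at 8 h, and 10.89, 10.55 and 10.36 at 24 h. Number 3 was lowest in each group. ITGA5 rose by 1.82 ± 0.32 at 24 h (limma adjusted p = 0.00514) and by 1.23 ± 0.32 at 8 h (adjusted p = 0.0485), and ITGAV, a chain of several receptors for these ligands, rose by 1.01 ± 0.28 (adjusted p = 0.0430) at 24 h. With the block 4 receptors rose and 1 fell at 8 h, and 4 rose and 2 fell at 24 h. Of all 17638 probe sets the block gave 1006 rises and 1194 falls at 8 h, and 1723 and 1796 at 24 h.

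Other matricellular and matrix glycoproteins mostly went down in culture. Of 17 tested 11 fell and 3 rose, with a median of -1.21, where 25.8% of all probe sets fell and 33.6% rose. COMP, itself a thrombospondin, read 4.19, 4.18 and 6.68 in untreated P2 cells, against 12.66, 13.13 and 12.91 in P0 cells. COMP (-7.88 ± 0.88 SE), SPARCL1 (-5.51 ± 0.45 SE) and DPT (-4.11 ± 0.27 SE) fell, and CILP fell at least 71.7-fold. THBS3, outside the naming rule and given because it is a thrombospondin, averaged 7.59 in untreated P2 cells and 9.77 in P0 cells (-2.18 ± 0.22 SE, limma adjusted p = 4.28e-06). So THBS1 was the 1 of 4 thrombospondin genes tested that rose. Under TGF-β1 at 8 h none of the 17 passed limma's test (0 rising and 1 falling at an unadjusted p under 0.05). At 24 h SRPX2 rose by 0.93 ± 0.20, and SPARCL1 (-1.62 ± 0.45), FBLN1 (-0.76 ± 0.18) and LGALS3 (-0.71 ± 0.13) fell, with a median over the 17 of -0.10. With the block these became 1 rise and 2 falls at 8 h and 2 rises and 5 falls at 24 h. Of all 17638 probe sets the block gave 1006 rises and 1194 falls at 8 h, and 1723 and 1796 at 24 h. Without the P2 arrays numbered 3, none of the 17 rose and 1 fell at 24 h, where 314 of 17638 probe sets rose and 448 fell.

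**Figure D5:**
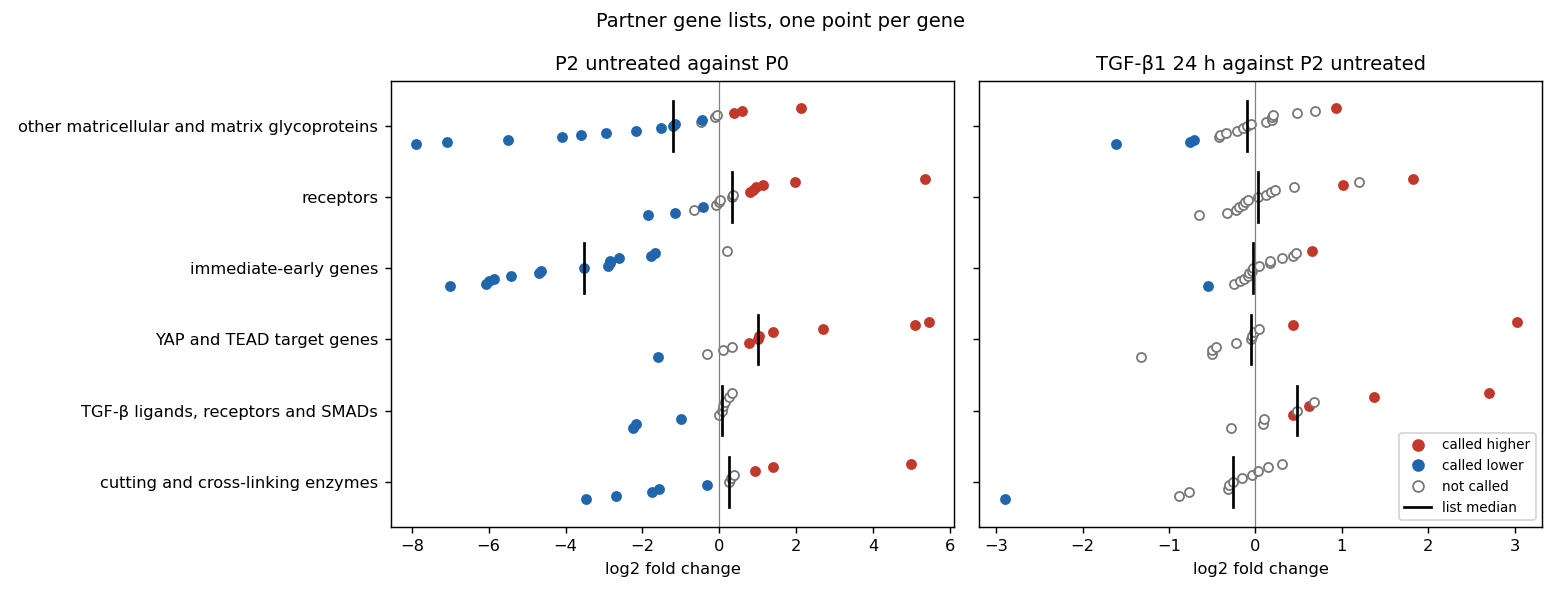
Log2 fold changes (horizontal axis, scaled separately) of the tested genes of 6 lists, 1 point per gene, in untreated P2 against P0 cells (left) and at 24 h of TGF-β1 against untreated cells (right). Red and blue points passed an adjusted p of 0.05 and black bars are list medians. In culture 14 of 15 immediate-early genes and 11 of 17 other glycoproteins fell, and at 24 h 4 of 9 TGF-β pathway genes rose.

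TGF-β pathway genes and matrix enzymes completed the lists. Of 9 TGF-β ligands, receptors and signalling genes 3 fell in culture and none rose (0 at an unadjusted p under 0.05), namely PMEPA1 (-2.25 ± 0.25), SMAD3 (-2.16 ± 0.16) and TGFBR3, whose means both lay under the control level. At 8 h PMEPA1 (2.64 ± 0.25) and TGFBR1 (0.63 ± 0.13) rose and SMAD3 fell (-0.82 ± 0.16). At 24 h 4 rose and none fell (6 and 0 at an unadjusted p under 0.05), where 4.27% of all probe sets rose. These were PMEPA1 (2.70 ± 0.25), TGFB1 (1.38 ± 0.25), TGFBR1 (0.62 ± 0.13) and TGFB2 (0.44 ± 0.12). With the block 4 rose and 1 fell at 8 h, and 5 rose and none fell at 24 h. Of all 17638 probe sets the block gave 1006 rises and 1194 falls at 8 h, and 1723 and 1796 at 24 h. Among 11 enzymes and inhibitors that cut or cross-link matrix, 3 rose and 5 fell in culture, against the same 33.6% and 25.8% of all probe sets, with the collagenase MMP1 up at least 16.0-fold, and TIMP3 (-3.48 ± 0.57), ADAMTS1 (-2.70 ± 0.66) and PLAT (-1.76 ± 0.34) down. ADAMTS1, a protease with thrombospondin repeats, fell further at 24 h of TGF-β1 (-2.90 ± 0.66, limma adjusted p = 0.0190), and the plasminogen activator PLAU fell at 8 h (-1.41 ± 0.29, adjusted p = 0.0185). With the block the enzymes had 2 falls at 8 h, 4 falls at 24 h and 5 rises in culture, where 6237 of 17638 probe sets rose in culture. The culture fit with the block also matched P0 to P2 arrays by number, whose residuals correlated at only -0.0916 to 0.0158.

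For each gene the most similar patterns over the 12 arrays were sought among tested genes with 1 symbol, by the root-mean-square log2 difference between centred profiles. The median distance over all such genes ran from 0.40 for CYR61 to 2.32 for TNXB. Nearest to TNC were PPOX (0.31), YKT6 (0.37) and RAI14 (0.40), and nearest to TNXB were APCDD1 (0.27), CCL24 (0.27) and RRAD (0.29). THBS1 lay closest to FAM91A1 (0.13), CCDC126 (0.14) and SEC24D (0.14), and THBS2 to GEM (0.21), RYBP (0.25) and AKAP13 (0.27). SPP1 lay closest to FADS2 (0.21), CRIM1 (0.22) and SKA2 (0.24), CYR61 to TBL3 (0.083), PUM2 (0.097) and TAF1B (0.11), and FN1 to OSTF1 (0.10), PPP3CA (0.13) and POLR2B (0.13). CCL24 in P2 cells (means 3.39 to 3.61) and FADS2 in P0 cells (3.64) lay under the control level, so their distances rest partly on values not above background. None of the 7 genes was among the nearest of another.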

How the data were processed

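Total RNA was measured on 12 Affymetrix porcine 3' arrays. The deposited values are log2 expression per probe set, made with GCRMA per the submitters' processing notes; its version: not given in the sources used here. Symbols came from GEO's platform annotation, where 10069 probe sets have 1 symbol, 198 several and 13732 none, and genes were named only from probe sets with 1 symbol.

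Probe sets above log2 4 on at least 3 of 12 arrays (17638) were fitted with limma 3.58.1 in R 4.3.3 (lmFit, eBayes, 1 mean per group). P-values were Benjamini-Hochberg adjusted per comparison, with calls at an adjusted p under 0.05. Fits were tested on simulated data with independent noise on each array. That simulation held no likeness between P2 arrays of the same number, so it does not cover fits under such likeness. Where 1 group's mean lay under the 95th percentile of 64 reporter controls, log2 4.58, the fold is a bound against that level ("at least"). The number of arrays limits the precision.

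The 7 genes and all lists were chosen with earlier results of these data known. A gene with several probe sets is led by the one with the highest mean; from each list up to 4 called genes of largest change, and the 3 nearest patterns per gene, are named. P2 arrays of the same number had residuals correlating at 0.348 to 0.679 in 9 pairs, and different numbers at most at 0.0796, so numbers were taken to pair P2 arrays. P0 arrays with the same number correlated with P2 arrays at -0.0916 to 0.0158. Alternatives were the filter, centring, quantile normalisation, an intensity trend, fits of the compared groups alone, the replicate block and leaving out each array. No sequence or coordinate was used here.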

Additional observations from a re-analysis of the deposited data

How the results depend on the processing

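No called fold change of a gene described above changed sign under any alternative run. The count at 8 h of TGF-β1 against untreated cells, 3 probe sets, became 5 with the stricter filter, with quantile normalisation, with an intensity trend and with replicate number as a block. TNC, the 1 call of 24 h against 8 h, became 0 calls when only the arrays of the compared groups were fitted, and also with P2 arrays only and no block, or without the P2 arrays numbered 3, both added after seeing the data. Fitting only the compared groups also ended the calls of THBS2 at 8 h (adjusted p = 0.0990) and 24 h (0.0527) and of Ssc.924.3.A1_at of THBS1 at 24 h (0.0921), and P2 arrays only with no block ended that of THBS2 at 8 h (0.0611). Leaving out 1 array at a time gave 9 to 10 calls in culture, 2 to 3 at 8 h, 4 to 6 at 24 h, 0 to 1 at 24 h against 8 h and 9 to 10 at 24 h against P0. The causes were not tested. Over all probe sets, calls at 8 h, 24 h and 24 h against 8 h numbered 894, 1498 and 41, with the block 2200, 3519 and 430, with the compared groups alone 519, 631 and 0, and without the P2 arrays numbered 3 265, 762 and 12. Leaving out 1 array gave 364 to 702, 800 to 1347 and 4 to 44 such calls, and 24 h against 8 h had 25 with no filter, 63 with the trend and 20 with P2 arrays only and no block. Beyond the values given above, the block changed no other call of these genes.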

Other observations

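SPP1 and Ssc.10406.1.A1_at of THBS1 differed by replicate number in cultured cells. Averaged over the 3 P2 groups, SPP1 deviated from its group mean by -0.11, -0.28 and 0.39 on numbers 1, 2 and 3, and Ssc.10406.1.A1_at by -0.39, -0.04 and 0.43. The endothelial marker mean deviated by 0.43, 0.65 and -1.09. Of the 14 probe sets 3 (21.4%) were highest on number 3 in all 3 P2 groups, 1 (7.14%) on number 2 and 0 on number 1, against 15.7%, 8.90% and 8.81% of the probe sets tested, so these shares are near those of the whole array.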
